A study of Arabidopsis thaliana with 8 samples.

Results

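The genes described here are 10 Arabidopsis thaliana loci of the phloem, taken by locus: APL, NAC045, NAC086, OPS, BRX, SEOR1, SEOR2, CALS7, PP2-A1 and FTIP1. All 10 were present among the 27634 rows of the expression table. Their transcripts were measured by RNA-seq in rosette leaves of 24-day-old plants, in 4 libraries of wild-type (WT) plants and 4 of DLK2-OE1. The latter is an overexpression line for DLK2 (DWARF14-LIKE 2), an α/β hydrolase related to the strigolactone receptor. Plants of both genotypes spent 11 days on plates and then 13 days on soil, and no other treatment or allele is named for either. All DLK2-OE1 libraries come from 1 line, so that DLK2 and anything else by which the line differs from WT cannot be told apart. The labels name neither the promoter of the transgene nor the parental accession. They also leave unstated whether a replicate was 1 plant or a pool, so the p-values cover no more than the variation among these libraries, which may be technical.

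The phloem carries sugars, proteins and RNA out of source leaves. Its conducting cells, the sieve elements, lose their nucleus as they mature and depend on the companion cells beside them. APL is a MYB-type factor required for phloem identity, and NAC045 and NAC086 act downstream of it in the breakdown of the sieve element nucleus. OPS and BRX are membrane-associated proteins of developing sieve elements that lie at opposite ends of the cell in roots and promote and shape protophloem formation. SEOR1 and SEOR2 form the filaments of mature sieve elements, and CALS7 makes the callose of sieve plates. PP2-A1 is a lectin made in companion cells, and FTIP1 is an endoplasmic reticulum protein needed for export of the flowering signal FT from companion cells to sieve elements.

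Library totals ranged from 18097159 to 22139801 counts. DLK2 (AT3G24420) was at 60.4, 73.5, 85.1 and 73.4 CPM (counts scaled by TMM-adjusted library size; values in replicate order here and below) in WT. It was at 120, 150, 137 and 145 CPM in DLK2-OE1, so the genotypes did not overlap. The mesophyll genes RBCS1A, RBCS3B, CAB2, CAB3 and LHCB1.4 together made up 17787 to 46448 CPM in every library, so the defining genes of green leaf tissue were present throughout. Libraries of DLK2-OE1 differed among themselves. In replicates 1 and 2 the 8 xylem markers together reached 151 and 275 CPM and the 5 procambium and cambium markers 87.8 and 122 CPM, against 89.8 and 65.4 CPM and 44.9 and 42.9 CPM in replicates 3 and 4. The same sums spanned 23.0 to 61.5 CPM and 25.9 to 33.1 CPM in WT. The shoot meristem gene sum (STM, KNAT1, KNAT6, CLV3 and WUS) was 0.177 to 1.57 CPM in WT and 37.4, 61.6, 8.31 and 9.14 CPM in DLK2-OE1, with CLV3 at 0 counts in all 8 libraries and WUS at 1 count in WT replicate 2, 1 count in DLK2-OE1 replicate 1 and 0 in the rest. Over all genes tested, edgeR's quasi-likelihood test called 3.69% at an adjusted p under 0.05, 26.3% had an unadjusted p under 0.05, and DESeq2 called 13.3%. Beside these shares, 3 of 7 tested xylem genes rose by edgeR, the cellulose synthase genes CESA7, CESA8 and CESA4 (3.02, 2.51 and 1.79 on the log2 scale, against 1.27 for XCP2, the lowest of the list). All 7 had an unadjusted p under 0.05 in edgeR, and DESeq2 called 6 of the list, all higher. The shoot meristem genes KNAT1, STM and KNAT6 rose (6.63, 6.17 and 3.88), 3 of 3 tested. None of 5 procambium genes passed in edgeR, where 5 had an unadjusted p under 0.05 and DESeq2 called 5, with values from 0.85 for ATHB8 to 1.72 for PXY. None of 5 mesophyll genes passed by either tool, 0 having an unadjusted p under 0.05, with values from -0.48 for CAB2 to -0.28 for LHCB1.4. None of 5 epidermis genes passed in edgeR, where 2 had an unadjusted p under 0.05 and DESeq2 called 1, with values from -0.66 for KAT1 to 3.18 for PDF1. Epidermis sums were 364 to 478 CPM in WT and 460 to 539 CPM in DLK2-OE1. To these sums PDF1 added 0, 38.6, 1.79 and 0.0510 CPM in WT and 123, 200, 42.5 and 5.42 CPM in DLK2-OE1. KCS10 added 188, 218, 207 and 217 CPM in WT and 248, 230, 279 and 277 CPM in DLK2-OE1 (log2 fold change 0.32, edgeR adjusted p = 0.114). The part of such marker differences in the results below was not tested.

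The sequences upstream of 4 of the genes are shown because SEOR1, SEOR2 and OPS combined higher levels in every DLK2-OE1 library with an upstream window free of other genes, and APL, whose levels overlapped, is shown beside them for contrast. Each run is the 250 bases before the annotated gene start, read 5′ to 3′ on the gene's strand from TAIR10.1 (RefSeq). Capitals mark AAAG or its reverse complement CTTT, the core sequence that DOF zinc finger factors bind, and DOF factors are among the phloem regulators measured below.
SEOR1, chr3:251618-251867, plus strand: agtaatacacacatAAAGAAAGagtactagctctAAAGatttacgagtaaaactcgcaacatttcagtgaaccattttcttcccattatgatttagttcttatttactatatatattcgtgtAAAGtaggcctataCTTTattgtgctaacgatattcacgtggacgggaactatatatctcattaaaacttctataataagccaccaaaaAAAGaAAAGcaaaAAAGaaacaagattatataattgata
SEOR2, chr3:246942-247191, plus strand: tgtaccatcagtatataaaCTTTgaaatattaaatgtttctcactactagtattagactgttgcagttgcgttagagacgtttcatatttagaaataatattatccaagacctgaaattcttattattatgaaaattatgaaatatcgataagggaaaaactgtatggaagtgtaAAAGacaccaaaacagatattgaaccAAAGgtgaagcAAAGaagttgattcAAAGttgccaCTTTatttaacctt
OPS, chr3:2771376-2771625, minus strand: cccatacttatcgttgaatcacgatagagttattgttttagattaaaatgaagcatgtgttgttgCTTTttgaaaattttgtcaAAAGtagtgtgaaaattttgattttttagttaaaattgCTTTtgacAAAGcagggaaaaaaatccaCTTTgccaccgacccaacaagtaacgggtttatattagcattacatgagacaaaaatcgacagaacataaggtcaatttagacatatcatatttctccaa
APL, chr1:29879280-29879529, minus strand: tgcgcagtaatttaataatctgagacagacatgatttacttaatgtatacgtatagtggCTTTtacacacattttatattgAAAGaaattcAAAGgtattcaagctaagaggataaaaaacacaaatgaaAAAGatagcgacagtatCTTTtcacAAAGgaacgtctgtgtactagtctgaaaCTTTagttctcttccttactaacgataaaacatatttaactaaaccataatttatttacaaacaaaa
The windows of SEOR1, SEOR2, OPS and APL held 8, 6, 5 and 7 AAAG sites over both strands, where the median of 27443 protein-coding genes was 4 and 98.0% held at least 1. At least as many sites were present in 7.1%, 24.3%, 39.4% and 13.6% of all windows. The CALS7 window, which overlaps another gene and is not shown, held 2 sites, and 90.5% of all windows held at least as many, although CALS7 too was higher in every DLK2-OE1 library. NAC086 and FTIP1, whose levels overlapped between the genotypes, held 6 and 5 sites. G and C made up 29.2%, 29.2%, 31.2% and 28.8% of the SEOR1, SEOR2, OPS and APL windows and 42.8% of the CALS7 window. The site counts were not adjusted for this. The G-box CACGTG was found on either strand in the SEOR1 window alone among the 10 genes, starting at position -93, and in 6.5% of all windows. The sequence GNATATNC, bound by PHR1, a relative of APL, was in 0 of the 10 windows and in 5.5% of all. These matches describe letters in the windows and not sites of binding.

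Of the 10 genes, SEOR2 rose in DLK2-OE1, 8 did not pass the test and NAC086 was too low to be tested. The threshold was an adjusted p under 0.05 in edgeR's quasi-likelihood test, adjusted over all 18155 genes tested. Of these 3.69% were called, 2.12% as higher and 1.58% as lower in DLK2-OE1. SEOR1, SEOR2, CALS7 and OPS separated the genotypes, with the lowest DLK2-OE1 value above the highest WT value. That held for 4 of the 10 genes and for 7.87% of genes tested (15.2% in either direction). PP2-A1 separated them the other way, as did 7.29% of genes tested. APL, FTIP1, BRX, NAC045 and NAC086 overlapped between the genotypes. In bulk leaf RNA, a different number of phloem cells and a different amount of RNA per phloem cell cannot be told apart.

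Per unit of length the genes differed widely in level. In WT, FPKM (fragment counts scaled to transcript length and library size) averaged 221 ± 11.0 for PP2-A1, 10.04 ± 1.53 for SEOR1, 9.70 ± 1.33 for APL, 7.05 ± 2.25 for SEOR2 and 4.36 ± 0.603 for FTIP1 (SD, n = 4 each). OPS followed at 1.28 ± 0.174 FPKM, then BRX at 0.614 ± 0.475, CALS7 at 0.438 ± 0.159, NAC045 at 0.291 ± 0.197 and NAC086 at 0.158 ± 0.0867 FPKM. The WT libraries of PP2-A1 lay apart from those of SEOR1, those of SEOR2 from FTIP1 and those of FTIP1 from OPS, while each other neighbour in this order overlapped the next. In DLK2-OE1 the SEOR genes stood above APL without overlap, at 18.8 ± 7.80 FPKM for SEOR2 and 17.8 ± 5.67 FPKM for SEOR1 against 9.57 ± 1.35 FPKM for APL. CALS7 averaged 1.29 ± 0.653 FPKM there, above BRX at 0.740 ± 0.385 FPKM, with overlapping libraries.

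**Figure D1:**
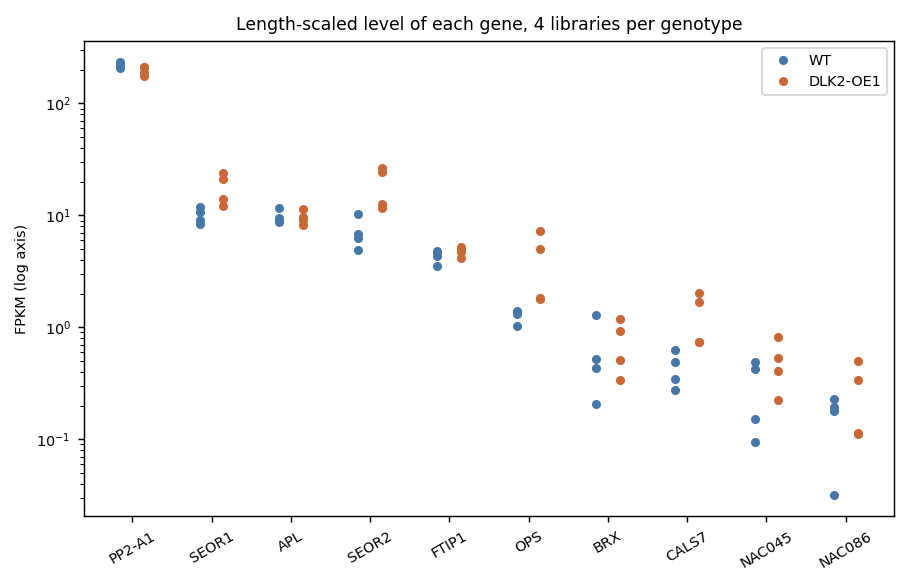
FPKM (log axis) of each gene, in order of WT mean, with 1 point per library and 4 libraries per genotype. PP2-A1 lies near 200 FPKM in both genotypes, and the SEOR1 and SEOR2 points of DLK2-OE1 lie above those of WT and above the DLK2-OE1 points of APL.

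APL (AT1G79430) spans 29877228 to 29879279 of chromosome 1 in TAIR10.1, minus strand, with up to 6 exons. It was at 17.99, 13.8, 13.6 and 13.7 CPM in WT and 12.1, 9.87, 14.0 and 17.3 CPM in DLK2-OE1. The ranges overlap, and DLK2-OE1 replicate 2 was the lowest of all. The log2 fold change was -0.15 (SE 0.18, 95% interval -0.55 to 0.25, edgeR adjusted p = 0.621). With DLK2-OE1 replicates 1 and 2 both left out, an omission chosen after seeing the data, the difference changed sign, to 0.097 (edgeR adjusted p = 0.823).

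NAC045 (AT3G03200, chromosome 3, 734892 to 738629, minus strand) and NAC086 (AT5G17260, chromosome 5, 5675184 to 5678175, minus strand) were the rarest of the 10. NAC045 gave 4, 3, 13 and 14 counts in WT and 22, 15, 11 and 6 counts in DLK2-OE1. Its log2 fold change was 0.61 (SE 0.55, 95% interval -0.63 to 1.84, edgeR adjusted p = 0.506), an interval wide on both sides of 0. NAC086 gave 5, 1, 7 and 5 counts in WT and 9, 14, 3 and 3 in DLK2-OE1, sums of 18 and 29 counts. Without the filter on low counts its log2 fold change was 0.55 (edgeR adjusted p = 0.628). Neither gene passed the test. With DLK2-OE1 replicates 1 and 2 both left out NAC045 was at 0.097 (edgeR adjusted p = 0.966). The coding sequences of the pair were identical at 77.6% of 1359 aligned bases, and the longest run they share was 23 bases, ggcatgcaggacgcatatgcact, from base 430 in both. The whole of GSTF11, a glutathione transferase gene on the opposite strand with 51 to 291 counts per library, lies within the annotated span of NAC045, so if the strand was not used in counting, reads of the 2 genes are hard to separate.

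OPS (AT3G09070) is a gene of 1 exon at 2768641 to 2771375 of chromosome 3, minus strand. Its level was 2.71, 3.78, 3.63 and 3.27 CPM in WT and 11.6, 14.9, 4.56 and 4.74 CPM in DLK2-OE1. All DLK2-OE1 libraries exceeded all WT libraries, but replicates 1 and 2 stood 3.46 and 4.45 times above the WT mean and replicates 3 and 4 only 1.36 and 1.42 times. The log2 fold change was 1.42 (SE 0.39, 95% interval 0.54 to 2.29), the largest of the 9 tested, and missed the threshold (edgeR adjusted p = 0.0672). The edgeR adjusted p was 0.181 without DLK2-OE1 replicate 1, 0.134 without 2, 0.0346 without 3 and 0.0263 without 4, and 0.107 to 0.173 without any 1 WT library. Without DLK2-OE1 replicates 1 and 2 the log2 fold change was 0.48 (edgeR adjusted p = 0.323). DESeq2, which called 13.3% of all genes, called OPS (adjusted p = 0.00712).

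BRX (AT1G31880, chromosome 1, 11445490 to 11450232, plus strand) was at 2.18, 0.737, 0.348 and 0.816 CPM in WT and 1.35, 1.54, 0.536 and 0.846 CPM in DLK2-OE1. The highest value of all was in WT replicate 1. Its log2 fold change was 0.10 (SE 0.55, 95% interval -1.15 to 1.34, edgeR adjusted p = 0.931), on 7 to 37 counts per library, and the sign changed without WT replicate 2, 3 or 4 or without DLK2-OE1 replicate 1 or 2. Without WT replicate 1 it was 0.76 (edgeR adjusted p = 0.389). Its paralogs BRXL1 to BRXL4 had log2 fold changes of 1.04, 0.40, 0.71 and 0.56 (edgeR adjusted p from 0.162 to 0.312). BRXL1 was at 0.767, 1.03, 0.745 and 0.918 CPM in WT and 2.65, 2.66, 0.858 and 0.959 CPM in DLK2-OE1, so replicates 1 and 2 stood above WT while replicates 3 and 4 lay within its range. BRXL1 is also the paralog closest to BRX, with 83.6% of aligned coding bases identical and a longest shared run of 26 bases, cgggaacggtttggggaagtgcatgc. Whether reads of BRX and BRXL1 were mixed in counting was not tested. The other 3 paralogs were identical to BRX at 66.9 to 67.7% of aligned bases.

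SEOR2 (AT3G01670, 247192 to 250472) and SEOR1 (AT3G01680, 251868 to 255513) are neighbours on the plus strand of chromosome 3, 1395 bases apart. SEOR2 was at 14.4, 18.7, 19.6 and 28.0 CPM in WT and 61.4, 60.5, 32.1 and 36.1 CPM in DLK2-OE1. Every DLK2-OE1 library lay above every WT library, with replicates 1 and 2 at 3.05 and 3.01 times the WT mean and replicates 3 and 4 at 1.59 and 1.79 times. The log2 fold change was 1.24 (SE 0.27, 95% interval 0.64 to 1.84, edgeR adjusted p = 0.0438), a 2.36-fold ratio of the means 47.5 ± 15.6 and 20.1 ± 5.68 CPM (SD, n = 4 each). The call held in 3 of 8 omissions of a single library. It was lost without WT replicate 1 (edgeR adjusted p = 0.125), 2 (0.0941) or 3 (0.147) and without DLK2-OE1 replicate 1 (0.127) or 2 (0.0885). With DLK2-OE1 replicates 1 and 2 both left out the log2 fold change was 0.77 (edgeR adjusted p = 0.202).

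SEOR1 was at 29.3, 25.4, 22.6 and 29.998 CPM in WT and 49.9, 50.7, 31.4 and 37.1 CPM in DLK2-OE1. The genotypes did not overlap, though DLK2-OE1 replicate 3 exceeded WT replicate 4 only slightly. Its log2 fold change was 0.66 (SE 0.17, 95% interval 0.28 to 1.04) and missed the threshold (edgeR adjusted p = 0.0605). By edgeR it passed without DLK2-OE1 replicate 3 (0.0286) or 4 (0.0393), whereas the adjusted p was 0.166 and 0.120 without replicate 1 or 2 and 0.0728 to 0.173 without any 1 WT library. Without DLK2-OE1 replicates 1 and 2 the difference was 0.36 log2 units (edgeR adjusted p = 0.276), and DESeq2 on all libraries called it (adjusted p = 0.00821).

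The balance between the filament genes is given as a description, since the ratio was chosen after its values were seen. The FPKM of SEOR2 divided by that of SEOR1 was 0.457, 0.684, 0.806 and 0.867 in WT and 1.14, 1.11, 0.951 and 0.905 in DLK2-OE1. The lowest DLK2-OE1 ratio was above the highest WT ratio, and the means were 1.03 ± 0.118 against 0.703 ± 0.181 (SD, n = 4 each). Their coding sequences were identical at 63.7% of aligned bases and shared no run longer than 12 bases (tcgagagcatgt). Another gene annotated as a sieve element occlusion protein, AT1G67790, stayed within overlapping ranges (0.17 on the log2 scale, SE 0.20, edgeR adjusted p = 0.628).

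CALS7 (AT1G06490) has up to 42 exons at 1978378 to 1989409 of chromosome 1, plus strand. It was at 1.77, 2.26, 4.02 and 2.96 CPM in WT and 9.26, 10.04, 4.45 and 4.68 CPM in DLK2-OE1. All DLK2-OE1 libraries were above WT, but replicates 3 and 4 exceeded WT replicate 3 by little. The log2 fold change was 1.37 (SE 0.35, 95% interval 0.58 to 2.16, edgeR adjusted p = 0.0598). Omitting DLK2-OE1 replicate 1, 2, 3 or 4 gave an edgeR adjusted p of 0.164, 0.120, 0.0381 or 0.0297, and omitting any 1 WT library gave 0.0866 to 0.144. Without DLK2-OE1 replicates 1 and 2 the value was 0.74 (edgeR adjusted p = 0.322), and DESeq2 on all libraries called it (adjusted p = 0.00452).

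PP2-A1 (AT4G19840, chromosome 4, 10773804 to 10775942, plus strand), the most abundant of the 10, was at 237, 225, 238 and 234 CPM in WT, a spread of 2.52% of the mean. In DLK2-OE1 it was at 177, 147, 216 and 222 CPM, lowest in replicate 2. The log2 fold change was -0.29 (SE 0.14, 95% interval -0.61 to 0.02) and did not pass (edgeR adjusted p = 0.215). On the FPKM scale the genotypes overlapped, at 206 to 233 FPKM in WT and 176 to 212 FPKM in DLK2-OE1, while SEOR1, SEOR2, CALS7 and OPS remained apart, as 11.0% of genes tested did on that scale (4.47% separated in the lower direction). Without DLK2-OE1 replicates 1 and 2 the log2 fold change was -0.08 (edgeR adjusted p = 0.746). The gene shares 284 bases with AT4G19830 on the opposite strand, which gave 215 to 551 counts per library against 3423 to 4797 for PP2-A1.

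FTIP1 (AT5G06850, chromosome 5, 2126944 to 2130509, minus strand) was at 14.3, 11.8, 15.5 and 14.9 CPM in WT and 14.9, 12.0, 12.9 and 16.1 CPM in DLK2-OE1. The ranges nearly coincide. Its log2 fold change was -0.02 (SE 0.13, 95% interval -0.31 to 0.28, edgeR adjusted p = 0.952), and the sign flipped on the FPKM scale, to 0.11 with a pseudocount of 1. The interval leaves room for a difference of up to about 0.3 log2 units in either direction. FT, the cargo of FTIP1, was at 9.67, 10.8, 13.5 and 15.9 CPM in WT and 3.26, 1.89, 7.13 and 4.40 CPM in DLK2-OE1 and fell (log2 fold change -1.59, SE 0.36, edgeR adjusted p = 0.0467).

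**Figure D2:**
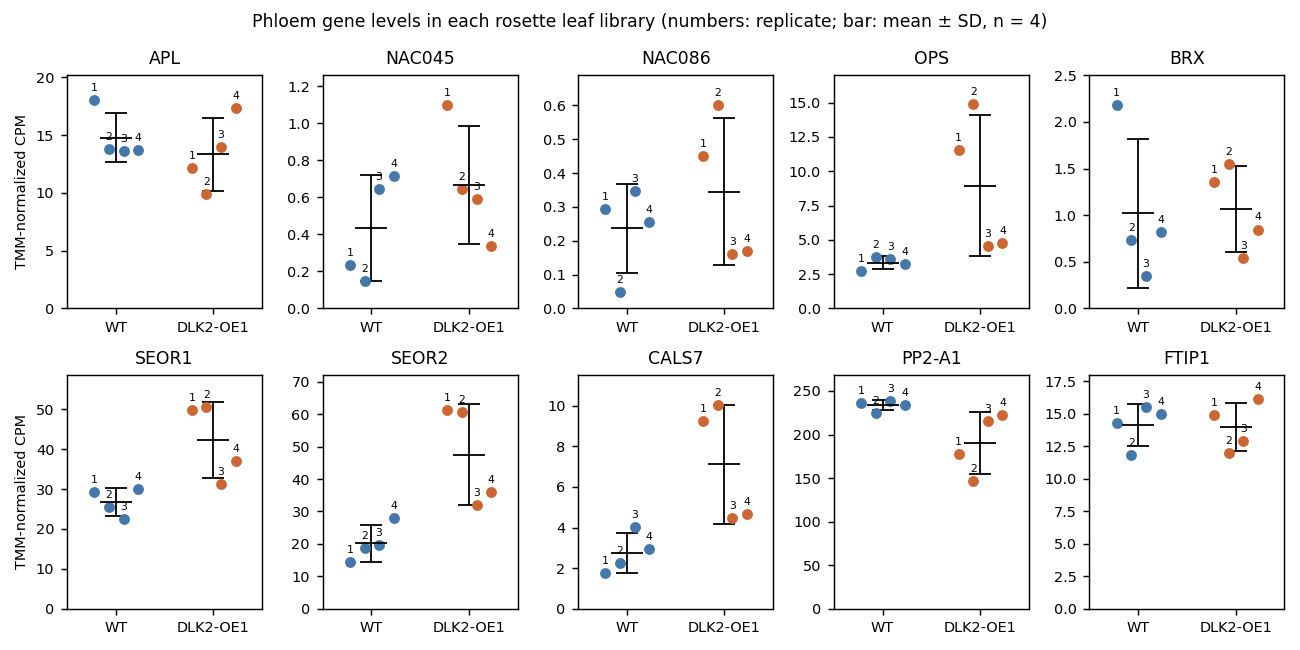
TMM-normalized CPM of the 10 phloem genes in each library (points, numbered by replicate), with the mean and SD of 4 libraries per genotype as bars. The SEOR1, SEOR2, CALS7 and OPS points of DLK2-OE1 lie above all WT points, with replicates 1 and 2 highest, whereas APL, FTIP1 and BRX overlap.

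Across the 10 genes, the libraries of DLK2-OE1 did not move as one block. In replicates 1 and 2, the levels of OPS, SEOR1, SEOR2 and CALS7 exceeded the WT mean by 0.90 to 2.15 log2 units. In replicates 3 and 4 they exceeded it by 0.23 to 0.84 log2 units. The highest of the 8 libraries was DLK2-OE1 replicate 1 or 2 for 6 of the 10 genes and for 36.2% of genes tested. DLK2-OE1 replicate 2 held the highest level for 4 of the 10 genes (SEOR1, CALS7, OPS and NAC086) and the lowest for 2, APL and PP2-A1. Replicates 1 and 2 are also those with the highest xylem and procambium sums and the lowest companion cell and mesophyll sums of the DLK2-OE1 libraries, and the part of these differences in the results was not tested.

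**Figure D3:**
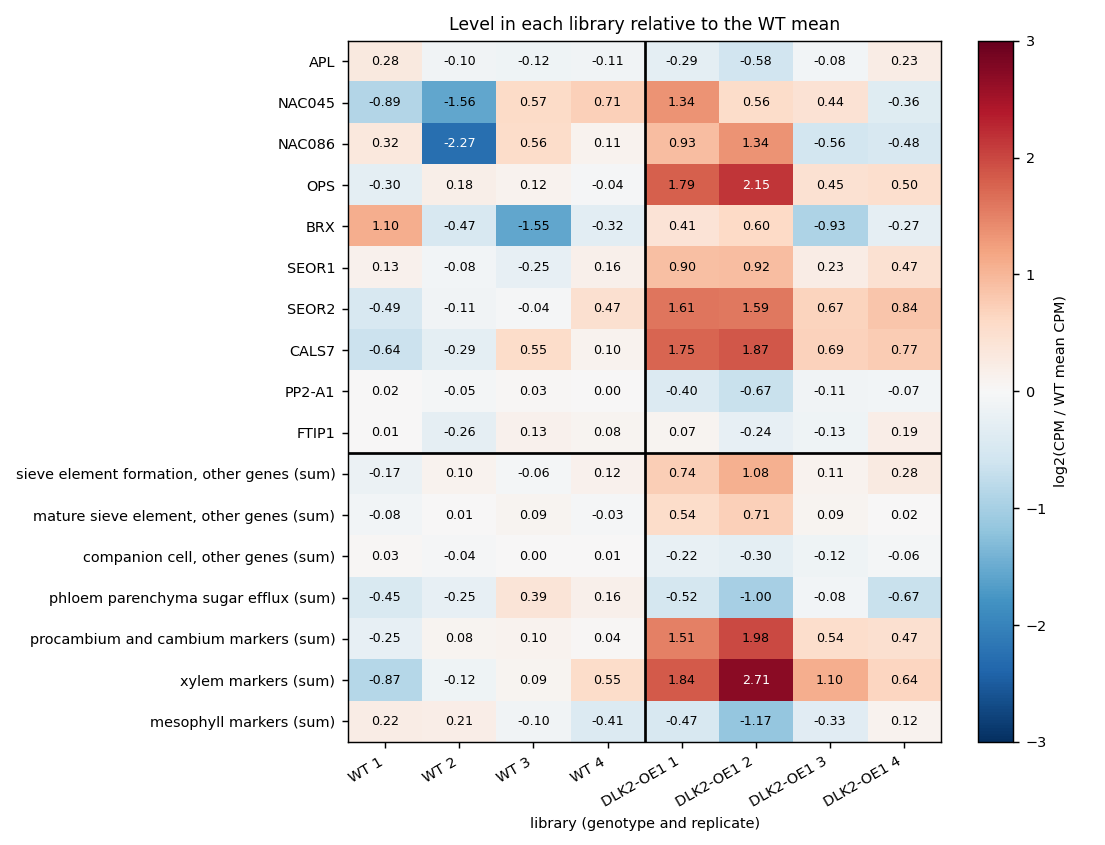
Log2 ratio of the CPM in each library to the WT mean, for the 10 genes (upper rows) and for summed CPM of other gene lists (lower rows). Red cells gather in DLK2-OE1 replicates 1 and 2 for OPS, SEOR1, SEOR2, CALS7, procambium and xylem, and PP2-A1 and the companion cell sum are lowest in the same libraries.

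Among 16 other genes of sieve element formation, 14 were tested, of which 2 rose and 12 did not pass. Of all genes tested, edgeR called 3.69%. An unadjusted p under 0.05 was found for 9 of the 14 (26.3% of all genes tested). DESeq2 called 8 of the list as higher and 1 as lower (13.3% of all genes). The median log2 fold change was 0.74, against 0.00 over all genes tested, and 13 of 14 were positive. SMXL5, which acts with SMXL3 and SMXL4 to promote phloem formation, was at 2.89, 4.27, 2.68 and 2.65 CPM in WT and 10.5, 17.2, 6.27 and 5.47 CPM in DLK2-OE1 and rose (log2 fold change 1.66, SE 0.37, edgeR adjusted p = 0.0461). AT2G44830, annotated as a protein kinase, was at 2.59, 3.73, 2.29 and 2.19 CPM in WT and 12.9, 17.8, 5.04 and 5.87 CPM in DLK2-OE1 and rose (log2 fold change 1.95, SE 0.41, edgeR adjusted p = 0.0438). In both genes every DLK2-OE1 library was above every WT library, and replicate 2 was the highest. CVP2, a phosphoinositide phosphatase of vein patterning that acts in the same root protophloem process as OPS and BRX, did not pass (0.98 on the log2 scale, SE 0.31, edgeR adjusted p = 0.0905). Its relative CVL1 had the lowest value of the list, -0.57 (SE 0.17, edgeR adjusted p = 0.0768), with 15.1 to 20.2 CPM in WT and 9.35 to 14.6 CPM in DLK2-OE1. BAM3, the receptor kinase that restrains protophloem formation, had 0.70 (SE 0.22, edgeR adjusted p = 0.0968), and its peptide ligand CLE45 had 0.47 (SE 0.35, edgeR adjusted p = 0.423). The DOF factor genes DOF2.4, HCA2, TMO6 and AT5G02460 had log2 fold changes of 0.76, 0.76, 0.87 and 0.34 (edgeR adjusted p from 0.0960 to 0.634). The 2 calls were lost in 6 of 8 omissions of a single library, WT replicates 1 to 4 and DLK2-OE1 replicates 1 and 2. Those omissions called 0% to 2.73% of all genes tested. With DLK2-OE1 replicate 3 left out, 4 genes were called (7.47% of all genes tested), and with replicate 4 left out, 6 (11.9%).

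A list of 9 other genes was grouped under mature sieve elements. Of these, 8 were tested and 0 passed in edgeR, with 4 at an unadjusted p under 0.05 (26.3% of all genes tested). DESeq2 called 2 (13.3% of all genes). The list includes exonuclease and callose synthase genes, and whether each is confined to mature sieve elements was not tested. The median log2 fold change was 0.55. ENODL9, an early nodulin-like protein gene, was at 4.89, 5.80, 5.71 and 6.53 CPM in WT and 12.2, 14.1, 6.59 and 9.82 CPM in DLK2-OE1 (log2 fold change 0.90, SE 0.22, edgeR adjusted p = 0.0575). The callose synthase genes GSL04 and CALS3 had 0.83 and 0.36 (edgeR adjusted p = 0.0692 and 0.207), beside 1.37 for CALS7. The exonuclease genes NEN1 and NEN2, named for their dependence on NAC045 and NAC086, had -0.29 and -0.66 (edgeR adjusted p = 0.147 and 0.160). The highest value was 1.24 (SE 0.61, edgeR adjusted p = 0.229), for AT3G10680, which is annotated as a small heat shock-like protein.

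Among 10 other companion cell genes, 9 were tested, of which FT and TSF, its close relative, fell and 7 did not pass. Of all genes tested, edgeR called 3.69%. An unadjusted p under 0.05 was found for 3 of the 9 (26.3% of all genes tested). DESeq2 called 2 of the list, both lower (13.3% of all genes). The median log2 fold change was -0.26. TSF was at 0.943, 1.18, 0.696 and 0.714 CPM in WT and 0.200, 0.257, 0.429 and 0.226 CPM in DLK2-OE1. Its log2 fold change was -1.65 (SE 0.37, edgeR adjusted p = 0.0467). That value rests on 16, 24, 14 and 14 counts in WT and 4, 6, 8 and 4 counts in DLK2-OE1. SUC2, the sucrose symporter that loads the phloem, was at 208, 244, 239 and 248 CPM in WT and 152, 98.3, 211 and 223 CPM in DLK2-OE1 (log2 fold change -0.46, SE 0.23, edgeR adjusted p = 0.242). AHA3, the proton pump that powers loading, was at 367, 333, 341 and 316 CPM in WT and 240, 177, 296 and 345 CPM in DLK2-OE1 (log2 fold change -0.36, SE 0.19, edgeR adjusted p = 0.260). Both were lowest in DLK2-OE1 replicate 2, as PP2-A1 was. The highest log2 fold change was 0.66 (SE 0.44, edgeR adjusted p = 0.364), for the amino acid permease gene AAP3. The FT and TSF calls were lost in 6 of 8 omissions of a single library, WT replicates 1 to 4 and DLK2-OE1 replicates 1 and 2. Those omissions called 0% to 2.73% of all genes tested. With no filter on low counts, with limma-voom and with the replicate block, FT stayed called and TSF did not pass. Without DLK2-OE1 replicate 4 the count was 3 (11.9% of all genes tested), the added gene being the sulfate transporter gene SULTR2;1, which was higher. SULTR2;1 was at 130, 107, 119 and 138 CPM in WT and 203, 281, 147 and 123 CPM in DLK2-OE1. On all libraries its log2 fold change was 0.61 (SE 0.24, edgeR adjusted p = 0.148). It was highest in DLK2-OE1 replicate 2, where the companion cell sum was lowest, so the sum of this list joins genes moving in opposite directions. Whether SULTR2;1 transcripts came from companion cells was not tested.

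Of the 3 sugar efflux genes, which release sucrose from phloem parenchyma before loading, SWEET13 fell and SWEET11 and SWEET12 did not pass. Of all genes tested, edgeR called 3.69%. An unadjusted p under 0.05 was found for 2 of the 3 (26.3% of all genes tested), and DESeq2 called 1 (13.3%). SWEET13 was at 2.18, 2.70, 4.52 and 1.89 CPM in WT and 0.801, 0.687, 0.697 and 0.621 CPM in DLK2-OE1 (log2 fold change -2.00, SE 0.33, edgeR adjusted p = 0.0219). Here the DLK2-OE1 libraries lay close together, on 16, 16, 13 and 11 counts against 37, 55, 91 and 37 counts in WT. SWEET11 and SWEET12 had -0.63 (SE 0.25, edgeR adjusted p = 0.147) and -0.22 (SE 0.32, edgeR adjusted p = 0.695). The SWEET13 call was lost without WT replicate 1, 2 or 3 and without DLK2-OE1 replicate 1.

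**Figure D4:**
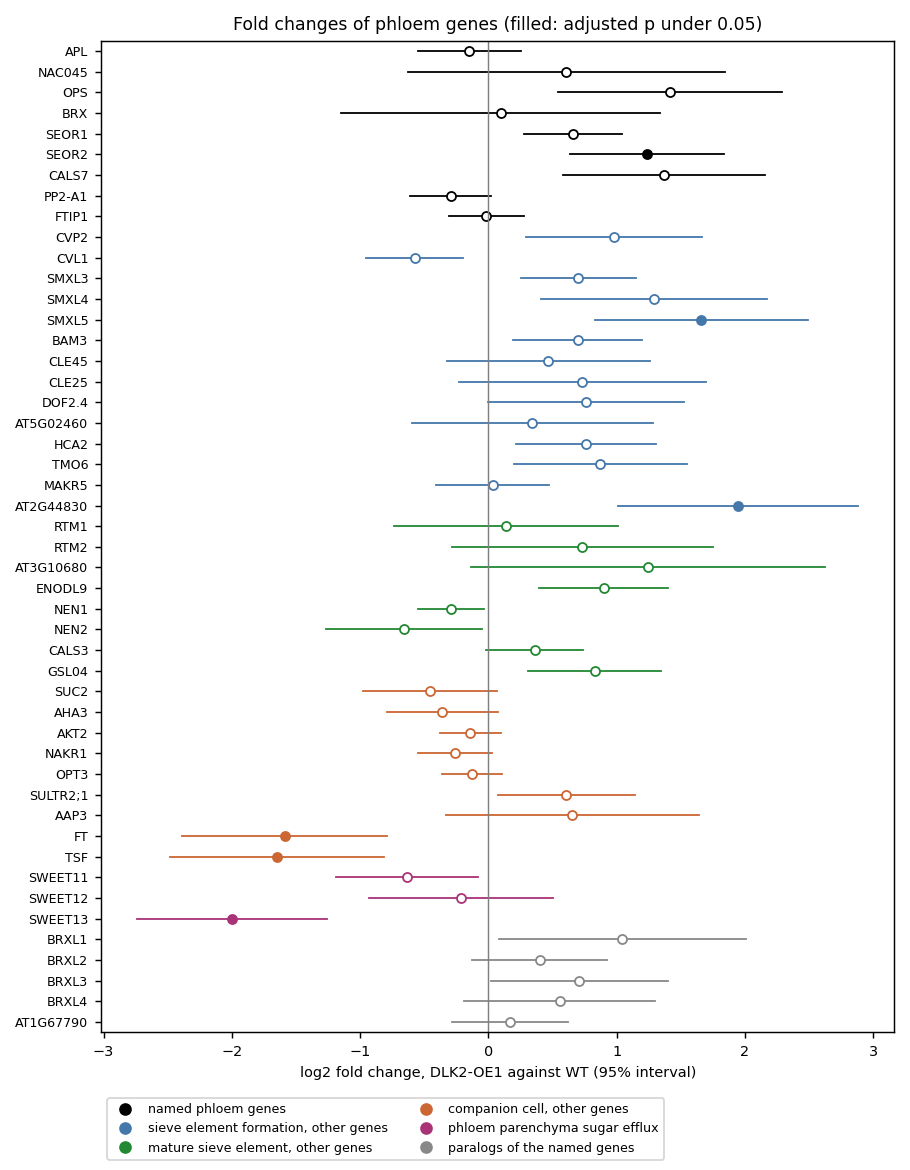
Log2 fold change of DLK2-OE1 against WT with its 95% interval for each tested phloem gene and paralog, grouped by list, where filled points passed an adjusted p of 0.05. SEOR2, SMXL5 and AT2G44830 are filled above 0, and FT, TSF and SWEET13 below it.

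How many of the 10 genes were called depended on the setting, as did the share of all genes called. With all libraries SEOR2 alone was called by edgeR, also with DESeq2 size factors (3.65% of all genes tested) and with no filter on low counts (2.95%). DESeq2 called SEOR1, SEOR2, CALS7 and OPS (13.3%). Counts were 0 with limma-voom (1.46%), with limma-trend on log2(FPKM + 1) and log2(FPKM + 0.1) (1.72% and 2.03%) and with the replicate number as a block (1.35%). The limma-trend fits tested only 6 of the 10 genes, those with an FPKM of at least 1 in at least 4 libraries. CALS7, BRX, NAC045 and NAC086 were not tested there. Leaving out DLK2-OE1 replicate 3 or 4 gave calls for the same 4 genes as DESeq2 (7.47% and 11.9%), and leaving out WT replicate 4 left SEOR2 (2.73%). Leaving out WT replicate 1, 2 or 3 left 0 called (0.0705%, 0.639% and 0%), as did leaving out DLK2-OE1 replicate 1 or 2 (0.0767% and 1.27%) or both (0.328%).

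**Figure D5:**
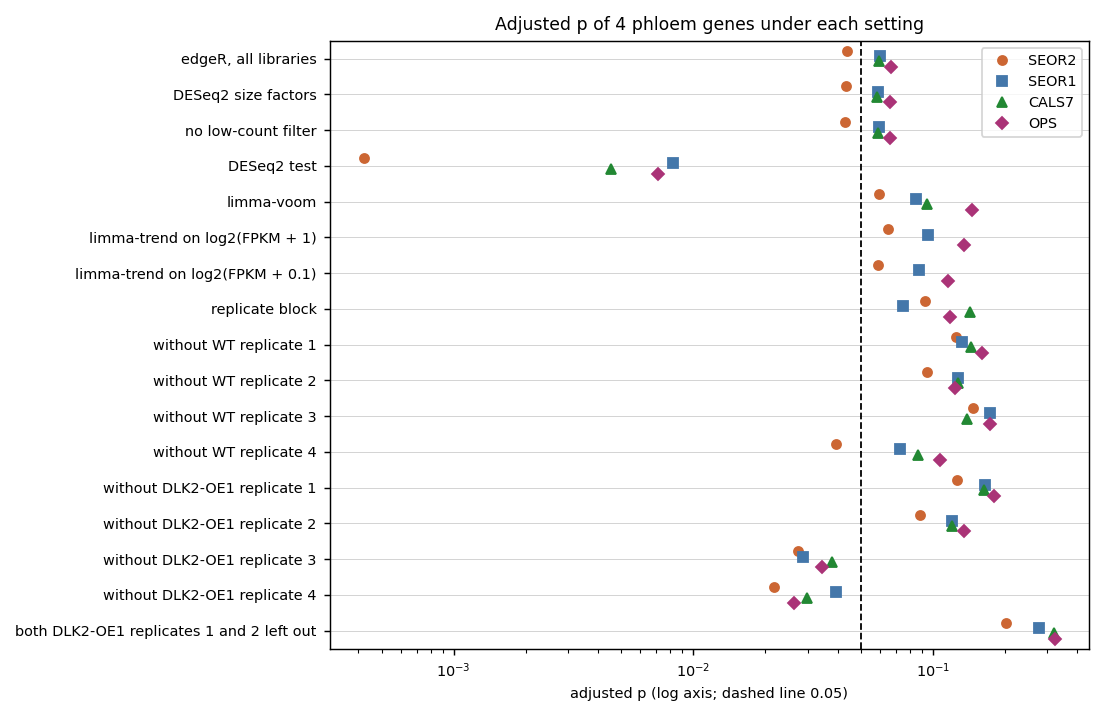
Adjusted p (log axis) of SEOR2, SEOR1, CALS7 and OPS under each setting, with the threshold of 0.05 dashed. CALS7 has no point for the limma-trend settings, where it was not tested. All 4 lie left of the line with DESeq2 and without DLK2-OE1 replicate 3 or 4, and right of it without WT replicate 1, 2 or 3 and without DLK2-OE1 replicate 1 or 2.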

How the data were processed

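Leaf poly(A) RNA was sequenced on an Illumina NovaSeq from NEBNext Ultra libraries, per the labels' protocols. The deposited tables hold whole-number counts and FPKM for every gene, 1 table per library, per the file headers. The sources used here do not say how reads were assigned to strand, which annotation release was used or whether the counts are rounded estimates. Tools named in the submitters' processing notes, with no role, are HISAT2, RSEM, edgeR, DESeq2, fastp (0.18.0), StringTie (1.3.1) and Bowtie2 (2.2.8), and the build is TAIR10. No pair of replicates agreed within sampling noise (chi-square over degrees of freedom of at least 11.4).

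Tests used edgeR 4.0.16 under R 4.3.3 on the deposited counts: filterByExpr, TMM, a robust quasi-likelihood fit and Benjamini-Hochberg adjustment over 18155 genes at a threshold of 0.05. SEs were derived from the F statistic and the log2 fold change, and 95% intervals from the fit's degrees of freedom. The genes and lists were chosen with earlier results of these data known. All 10 genes are named, and of the other lists every gene past the threshold and the genes giving the lowest and highest value. Other genes named, and the SEOR ratio, were chosen after their values were seen. Alternatives were DESeq2 size factors, DESeq2 1.42.0, limma-voom and limma-trend (limma 3.58.1) on log2 FPKM with pseudocounts of 1 and 0.1, no filter, a replicate block and omitted libraries. The limma-trend fits used only genes with an FPKM of at least 1 in at least 4 libraries. Names, coordinates and sequences are from TAIR10.1 (RefSeq). List genes without a name in that annotation are given by locus. Coding sequences were aligned globally with Biopython 1.88. The procedure was tested on simulated counts.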

Additional observations from a re-analysis of the deposited data

Results flagged for a closer look

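The APL level in WT replicate 1 was 17.99 CPM, far from the other 3 WT libraries at 13.6 to 13.8 CPM. Its gap to the nearest of them took up nearly the whole range of the group. The limit for such a gap is passed by chance in about 1 in 20 groups. The 10 genes and DLK2 were each screened in both genotypes, and no other group passed the limit. Among that many groups, a gap like this can arise by chance. Without that library the log2 fold change of APL was -0.05 (edgeR adjusted p = 0.905), against -0.15 on all libraries.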

How the results depend on the processing

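The threshold calls depended on the libraries. The number of the 10 genes called was 1 with all libraries (also without the filter or on DESeq2 size factors), 4 with DESeq2 and 0 with limma-voom and both limma-trend fits, and it ranged from 0 to 4 over omissions of 1 library. Only 6 of the 10 were tested by limma-trend, CALS7 not among them. Libraries with the same replicate number shared little variation, with correlations of their deviations from the group means of 0.02, 0.02, 0.12 and -0.11. These values cannot decide whether such libraries were grown or harvested together. With the replicate block 0 were called (245 of all genes, 1.35%), with SEOR2 at 1.21 (edgeR adjusted p = 0.0928). In the other phloem lists the block left 1 companion cell gene, 0 sugar efflux genes and 0 mature sieve element genes called. The 2 sieve element formation genes SMXL5 and AT2G44830 stayed called with it. SEOR2 missed the threshold with limma-voom (1.20) and limma-trend at pseudocounts of 1 (1.25) and 0.1 (1.35), ranged from 1.08 to 1.42 over single omissions and was 0.77 without DLK2-OE1 replicates 1 and 2, an omission added after seeing the data, which called 0 of the 10 and 0 in each other phloem list. DESeq2 called CALS7 (1.36), OPS (1.41) and SEOR1 (0.65). Over single omissions CALS7 ranged from 1.15 to 1.60, OPS from 1.05 to 1.63, SEOR1 from 0.56 to 0.77, BRX from -0.20 to 0.76 and FTIP1 from -0.098 to 0.053. Without DLK2-OE1 replicates 1 and 2, APL was 0.097, BRX -0.53, FTIP1 0.052, OPS 0.48, CALS7 0.74, SEOR1 0.36, NAC045 0.097 and PP2-A1 -0.08. On log2 FPKM, where the median of all genes moved to 0.12 and 0.13 (pseudocounts of 1 and 0.1) from 0.00, FTIP1 was 0.11 and 0.13. Sieve element formation genes called were 9 with DESeq2, 0 with limma-voom and limma-trend, and 0 to 6 over single omissions; mature sieve element genes 2 with DESeq2 and 0 to 2; companion cell genes 1 with no filter, limma-voom and limma-trend, and 0 to 3; sugar efflux genes 0 to 1. The causes were not tested. NAC045, NAC086 and BRX rest on 1 to 37 counts per library and TSF on 4 to 24, and whether depth limits them was not tested.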
